A study of Drosophila melanogaster with 3 samples.

Results

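The binding of Blimp-1 was examined at mol and Duox, the fly genes for the maturation factor of dual oxidase and for dual oxidase itself. The members were chosen by name, with the binding signal at mol already known, and they are 2 of 13945 protein-coding genes of the annotation. Chromatin immunoprecipitation with sequencing (ChIP-seq) had been done on whole prepupae of both sexes from a Drosophila melanogaster line that stably expresses Blimp-1 fused to GFP at its C terminus (Blimp-1-eGFP), and an anti-GFP antibody was used. All 3 biological replicates belong to this 1 group (Blimp-1-GFP, prepupa, age unknown), so no untagged, mutant or other-stage sample was compared. Each locus was taken as the gene body plus 20 kb on each side, on dm6. Sites are the merged peaks that passed the authors' IDR cut-off (irreproducible discovery rate, a measure of whether a peak keeps its rank from replicate to replicate), 4990 in all. A possible control experiment that the labels name was not analysed here.

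Dual oxidases are membrane enzymes that pass electrons from NADPH to oxygen and release hydrogen peroxide at the cell surface. Their maturation factors escort them from the endoplasmic reticulum to the plasma membrane, and mol (moladietz) encodes the fly member of this family. In flies, Duox is known for microbial control in the gut and for hardening of the wing cuticle, and the Curly wing mutation is an allele of Duox. Blimp-1 is a zinc finger repressor induced by ecdysone, known for timing gene expression in prepupae. Its vertebrate relative PRDI-BF1 recognises a sequence built around GAAAG, and that consensus of 11 positions is used here.

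The sequences at the summits are shown because they differ in how closely they match this consensus. Each is centred on the pooled summit and read on the strand of its closest match, which stands in capitals. The coordinates are chr2L:14995655-14995855 on the plus strand for the mol intron site, chr2L:14999683-14999833 on the minus strand for the mol upstream site, chr2L:2830320-2830520 on the plus strand for the Duox promoter site and chr2L:2804595-2804745 on the minus strand for the site upstream of daw. The sequences come from the RefSeq copy of genome release 6.
mol intron site: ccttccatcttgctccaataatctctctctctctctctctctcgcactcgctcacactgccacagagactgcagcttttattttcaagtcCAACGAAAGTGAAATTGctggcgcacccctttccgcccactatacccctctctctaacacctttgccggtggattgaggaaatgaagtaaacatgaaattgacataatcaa
mol upstream site: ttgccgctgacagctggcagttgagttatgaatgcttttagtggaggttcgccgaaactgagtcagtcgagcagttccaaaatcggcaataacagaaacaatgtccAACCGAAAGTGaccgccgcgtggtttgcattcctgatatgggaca
Duox promoter site: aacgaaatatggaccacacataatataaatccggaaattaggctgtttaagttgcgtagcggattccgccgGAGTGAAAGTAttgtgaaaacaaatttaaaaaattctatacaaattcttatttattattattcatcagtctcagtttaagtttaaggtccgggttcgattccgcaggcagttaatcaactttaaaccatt
daw promoter site: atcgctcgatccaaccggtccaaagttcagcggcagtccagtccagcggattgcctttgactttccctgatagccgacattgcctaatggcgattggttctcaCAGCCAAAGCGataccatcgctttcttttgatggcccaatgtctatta

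At the mol intron site the capitals hold an overlapping pair of matches, each with 1 mismatch, on the same strand and 6 bp apart. The pair spans chr2L:14995745-14995761, and the summit at 14995755 lies inside it. The centre of the nearer match was 1 bp from the summit, and its mismatch fell on the last base of GAAAG. The other match of the pair kept GAAAG, and its centre was 5 bp from the summit. Among the 1103 sites with a match of at most 1 mismatch within 100 bp, the median distance of the nearest match was 27 bp, and 2.63% had it within 1 bp. The closest match at the mol upstream site also had 1 mismatch, outside GAAAG, and lay 36 bp from the summit. That of the daw site had 1 mismatch, on the first base of GAAAG, and lay 33 bp from the summit. At the Duox promoter site the closest match had 2 mismatches and lay 24 bp from the summit. They fell on its first and last bases, so GAAAG was kept. No sequence is shown for the mol promoter site, which falls in a 5′ UTR and whose closest match had 2 mismatches.

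Counted together, 3 of the 5 sites in the windows had a match of at most 1 mismatch, against 22.1% of all sites and 6.41% of windows of the same length centred 500 bp away towards higher coordinates. A match with no mismatch was found at 0 of the 5, and one with at most 2 at 5 of the 5, against 65.9% of all sites. After the mol summit had been read, 3 further patterns were counted within 100 bp of every summit on both strands. A pair of matches spaced 6 bp apart on the same strand, as at mol, was present at 77 sites (1.54%), in 0.160% of flank windows and at 8 of the 100 strongest sites. The spaced repeat GAAANNGAAA, which that pair contains, was present at 15.7% of sites, 4.63% of flank windows and 39 of the 100 strongest sites. It was present at the mol intron site and at none of the other 4 sites in the windows. GAGAG, part of the GAGA factor motif, was present at the mol intron, mol promoter and daw sites, and at 32.04% of all sites, 24.7% of flank windows and 48 of the 100 strongest sites.

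The mol gene carried a very strong site in its first intron, and weaker ones at its promoter and just upstream. mol (FBgn0086711) runs on the minus strand of chromosome 2L from 14975747 to 14997559, and all 5 of its annotated transcripts start at the same base in both the Ensembl and the RefSeq annotation. The window held 3 sites. Of all protein-coding genes, 36.7% had 3 or more sites in such a window, so the number of sites at mol was near the background. The density was 4.85 sites per 100 kb in the mol window, against 3.73 over the major chromosome arms.

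The mol intron site spans chr2L:14995385-14996384, and its summit lies 1804 bp downstream of the start site. It falls in the first intron of all 5 transcripts, an intron between 5′ UTR exons of 2678 to 5009 bp, and the start codon lies 5088 bp downstream of the start site in 4 transcripts and 19987 bp downstream in mol-RG. Its pooled signal was 8848, which ranked 3 among all sites. Replicates were put on 1 scale by setting the median site of each to 1, which is called relative signal. Replicates 1, 2 and 3 gave relative signals of 23.8, 21.2 and 25.9, with a mean of 23.6 ± 2.38 (SD, n = 3). The site ranked 3, 5 and 1 among the sites of replicates 1, 2 and 3, so it stood near the top of every list. These values led to the choice of mol and are given as a description, without a test.

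The 1000 bp region of the mol intron site contained a further, weaker summit. This lay 203 bp from the main one towards the start site, with a pooled signal of 689, and the main summit was 12.9 times as high. Replicate 3 listed the weaker summit at the same base, and replicates 1 and 2 listed only the main one. A width of 1000 bp or more was reached by 0.481% of sites, and the median site was 470 bp wide. No consensus match of at most 2 mismatches lay within 100 bp of the weaker summit, and the nearest was the pair at the main one, 202 bp away.

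**Figure D1:**
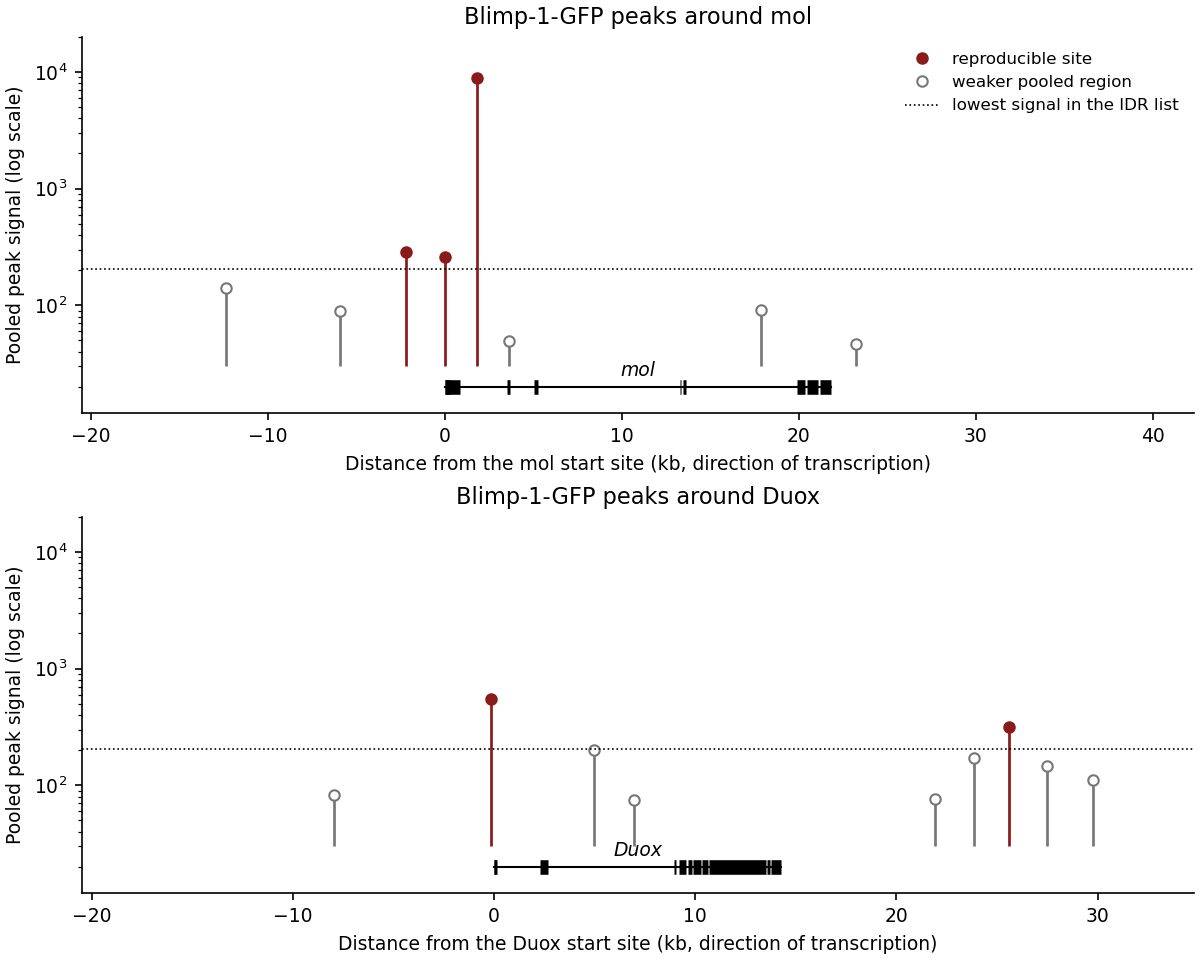
Pooled peak signal (log scale) against distance from the start site of mol (top) and Duox (bottom), in kb in the direction of transcription; filled points are reproducible sites, open points weaker pooled regions, thick bars exons, and the dotted line the lowest signal of the IDR list (205). The mol intron site at 8848 stands above every other site and weaker region of both windows, of which the next is the Duox promoter site at 547.

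The other mol sites were weaker than the median site of the genome. The mol promoter site, chr2L:14997285-14997754, had its summit 39 bp downstream of the start site in the first 5′ UTR exon and a pooled signal of 257. Its relative signal was 0.7996 in replicate 1 and 0.790 in replicate 2. In replicate 3 it was 0.259, from a peak whose summit lay 349 bp from the pooled one, and the mean was 0.616 ± 0.309 (SD, n = 3). The mol upstream site, chr2L:14999523-14999992, lay 2199 bp upstream of the start site in intergenic sequence, with a pooled signal of 289. Its relative signal was 0.948, 0.736 and 0.489 in replicates 1, 2 and 3, a mean of 0.724 ± 0.229 (SD, n = 3). At both sites replicate 3 was the lowest. Replicate 3 also had no peak at 589 of all sites, against 2 in replicate 1 and 35 in replicate 2, and the part of this in the low values at mol was not tested.

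Duox was bound at its promoter, at a level somewhat above the median site. Duox (FBgn0283531) runs on the minus strand of chromosome 2L from 2815970 to 2830248, and both annotated transcripts share 1 start site. The promoter site, chr2L:2830167-2830497, had its summit 172 bp upstream of the start site, a pooled signal of 547 and rank 1493. Replicates 1, 2 and 3 gave relative signals of 1.33, 1.996 and 2.04, with a mean of 1.79 ± 0.398 (SD, n = 3). Every replicate lay above the median site. Here replicate 1, not replicate 3, was the lowest. A promoter site, with a summit within 1000 bp of a start site, was present at 18.7% of protein-coding genes. Among the 2607 genes with one, Duox ranked 982 and mol, by its promoter site alone, ranked 2147.

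The other site of the Duox window belonged, by position, to a neighbouring gene. It lay at chr2L:2804435-2804904, 591 bp upstream of a start site of daw, which encodes an activin-type ligand of the TGF-β family, and 25578 bp downstream of the Duox start site, beyond the end of the gene. Its pooled signal was 318, and its relative signal was 0.847, 1.08 and 0.328 in replicates 1, 2 and 3, a mean of 0.753 ± 0.387 (SD, n = 3). No site lay inside the Duox gene body. The window thus held 2 sites, and 54.8% of protein-coding genes had 2 or more. At 3.69 sites per 100 kb, the density was close to the 3.73 of the major arms. Of the 13 protein-coding genes with a start site in the Duox window, Duox and daw had a promoter site, and of the 8 in the mol window mol had one. These counts are small, and 18.7% of all protein-coding genes had a promoter site.

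**Figure D2:**
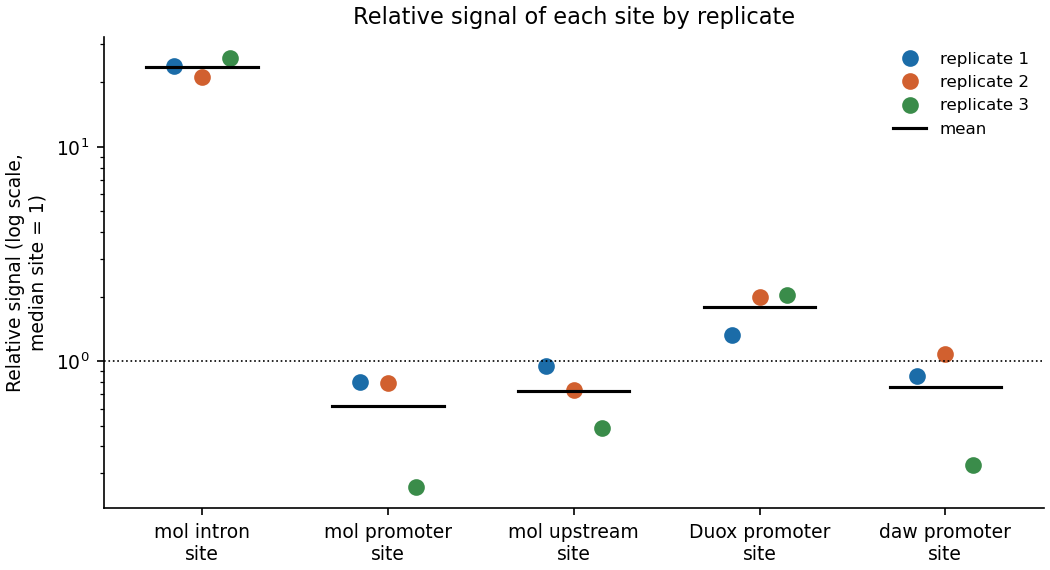
Relative signal (log scale; median site of each replicate = 1, dotted line) of the 5 sites in replicates 1, 2 and 3, with black bars for the mean. The mol intron site lies between 21.2 and 25.9, the Duox promoter site between 1.33 and 2.04, and the other 3 sites are lowest in replicate 3.

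The replicates placed the summit of the mol intron site almost at the same base, and that of the Duox promoter site far apart. The strongest mol summits of replicates 1, 2 and 3 lay 1, 6 and 0 bp from the pooled summit, a spread of 6 bp, and all fell inside the pair of consensus matches. The median spread was 48 bp over the 4374 sites with a peak in all 3 replicates and 14 bp over the 100 strongest sites, and 4.85% of the 4374 had a spread of 6 bp or less. At Duox the spread was 398 bp, which 1.05% of the 4374 sites reached or exceeded. Replicate 2 had its strongest summit 74 bp downstream of the Duox start site, with others 136 and 348 bp upstream. Replicate 3 had 1 summit, 312 bp upstream. Replicate 1 had a summit 324 bp upstream and another, of slightly higher signal (151 against 144), 210 bp downstream, whose peak ended just short of the pooled site and was therefore not counted in it. Signal at Duox was thus spread over both sides of the start site, and the position of binding is less certain there than at the mol intron site. The mol promoter site was much like Duox in this, with a spread of 354 bp, which 1.53% of the 4374 sites reached or exceeded.

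**Figure D3:**
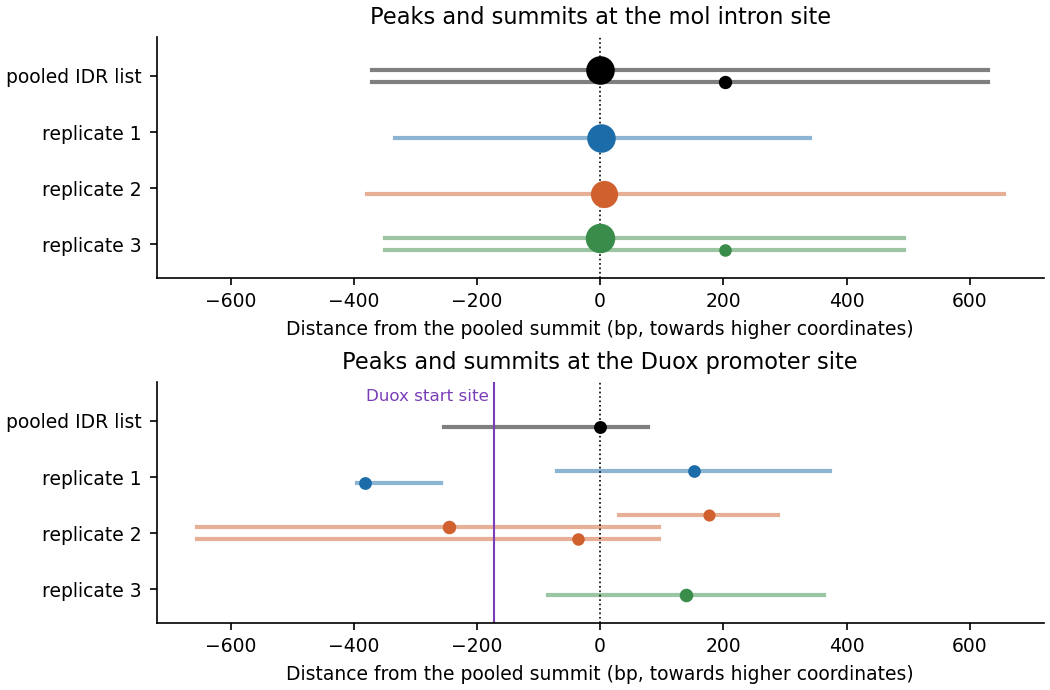
Peaks (bars) and summits (points, larger for higher relative signal) of the pooled IDR list and of each replicate, by distance in bp from the pooled summit, at the mol intron site (top) and the Duox promoter site (bottom). The main mol summits fall within 6 bp of each other, and the strongest overlapping Duox summits are spread over 398 bp, on both sides of the start site.

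Within each replicate the mol intron site was stronger than the Duox promoter site by 17.9, 10.6 and 12.7 times in replicates 1, 2 and 3, a mean ratio of 13.7 ± 3.77 (SD, n = 3). Of all protein-coding genes, 24.8% (3453) carried a site between 2 kb upstream and the gene end. Among these, 1 had a stronger best site than mol, and 1423 had a stronger one than Duox. The genes whose best site was most like that of mol over the 3 replicates, by Euclidean distance of log2 relative signal among 1980 sites, were Kdm2 (distance 0.520), GstE13 (0.630) and cu (0.919). Kdm2 encodes a histone lysine demethylase, GstE13 a glutathione S-transferase and cu (curled) a Nocturnin-type protein. Those most like Duox were CG7330 (0.113), CG33307 (0.173) and bbg (0.180), with mean relative signals of 1.82, 1.75 and 1.73. These distances compare signal level and replicate pattern only. Because whole prepupae were used, strong binding in few cells and weaker binding in many cannot be told apart.

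**Figure D4:**
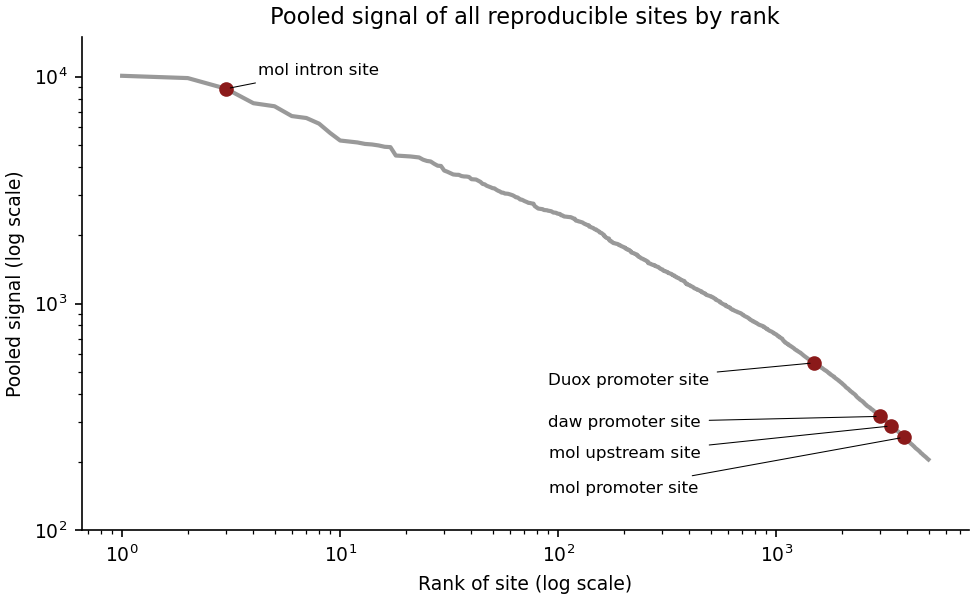
Pooled signal of all 4990 reproducible sites against rank (both axes log scale, grey line), with the 5 sites of the mol and Duox windows in red. The mol intron site ranks 3 and the Duox promoter site 1493, and the other 3 rank between 3001 and 3855.

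Below the IDR threshold, the Duox window held more regions that recurred in every replicate than the mol window did. A weaker region is a merged peak of the pooled relaxed list that overlaps no site. Of 5 weaker regions in the mol window, 1 had a peak in all 3 replicates, and of 7 in the Duox window 6 had, against 33.3% of the 18285 weaker regions of the genome. These counts are small and were not tested. The mol region present in all replicates lay 17858 bp downstream of the start site, with relative signals of 0.282, 0.124 and 0.415 in replicates 1, 2 and 3. The strongest weaker region of both windows lay inside the Duox gene body, 4949 bp downstream of the Duox start site and 207 bp downstream of that of CG3123, a gene nested in Duox on the same strand. Its pooled signal of 200.5 was just under the lowest in the IDR list, 205, and of the 5 sites in the windows the weakest was the mol promoter site at 257. Its relative signal was 0.686, 0.484 and 0.314, a mean of 0.495 ± 0.186 (SD, n = 3). Of the other 5 Duox regions found in every replicate, 3 lay at most 2493 bp from a daw start site, 1 lay 498 bp upstream of Syt1, a synaptotagmin gene, and 1 lay 179 bp upstream of Cpr23B, a cuticle protein gene.

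Other genes of oxidase and redox pathways were counted in 5 lists with 47 different genes, of which 37 matched by symbol and 10 by a synonym. A promoter site was present at 21 of the 47 (44.7%), and at 19 of the 45 other than mol and Duox (42.2%), against 18.7% of all protein-coding genes. Over the replicates, using as many of the strongest peaks as there were sites, the share for the 47 was 40.4%, 36.2% and 34.04% in replicates 1, 2 and 3, against 18.8%, 16.8% and 13.7% of all protein-coding genes. The median relative signal of these promoter sites was 1.25, against 1.09 over the 2607 bound genes. Gene length and the number of start sites were not matched between the lists and other genes, and the difference was not tested.

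In the list of NADPH oxidases and their maturation factor, all 3 members had a promoter site, against 18.7% of all protein-coding genes. In replicate 3 taken alone the share was 66.7%, against 13.7%. As mol and Duox are the chosen genes themselves, Nox is the only further gene in this count. Nox, the other NADPH oxidase gene of the fly, had one 18 bp upstream of its start site at 0.941 ± 0.0701 (SD, n = 3), about the level of the median site. The mol promoter site was lower than this, at 0.616, and that of Duox higher, at 1.79.

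Of the 12 genes in the list for signalling upstream of Duox, 4 (33.3%) had a promoter site, against 18.7% of all protein-coding genes. With the strongest peaks of each replicate taken alone, the share was 41.7%, 25.0% and 33.3% in replicates 1, 2 and 3. Over all protein-coding genes it was 18.8%, 16.8% and 13.7%. The highest promoter signal was that of p38a, a stress-activated kinase gene, at 3.82 ± 0.926 (SD, n = 3). It was followed by p38b at 1.25 ± 0.496 (SD, n = 3), whose site lay nearer to CG9008. Atf-2, a transcription factor gene downstream of p38, reached 1.18 ± 0.128 (SD, n = 2), and cad, a homeobox gene of the intestine, 0.547 ± 0.219 (SD, n = 3). norpA, a phospholipase C gene, and Mekk1, a kinase gene, had no promoter site, but sites farther from a start site, at 4.64 ± 1.497 and 2.60 ± 0.504 (SD, n = 3 each). Among the strongest peaks of single replicates, norpA had a promoter peak in 1 replicate and Mekk1 in 2, and the replicate shares above include these. Galphaq, Plc21C, Itpr, Ask1 and lic had none in the gene body or up to 2 kb upstream.

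Of 16 genes for the removal of superoxide and hydrogen peroxide, 9 (56.3%) had a promoter site, against 18.7% of all protein-coding genes. With the strongest peaks of each replicate taken alone, the share of the 16 was lower, at 37.5%, 37.5% and 31.3% in replicates 1, 2 and 3, against the 18.8%, 16.8% and 13.7% given above for all protein-coding genes. Prx3, a mitochondrial peroxiredoxin gene, reached 3.13 ± 0.320 (SD, n = 3) and Cat, the catalase gene, 2.93 ± 1.497 (SD, n = 3). Gtpx, a glutathione peroxidase-like gene, and Sod1, the cytosolic superoxide dismutase gene, reached 1.29 ± 0.0374 and 0.934 ± 0.00913 (SD, n = 2 each). The other 5 were below these, and the median of the 9 was 0.710. Of 8 heme peroxidase genes, 1 (12.5%) had a promoter site, against the same 18.7%. This was CG10211, at 6.49 ± 1.86 (SD, n = 3) and rank 87, the highest promoter signal of the 47 genes. Of 9 regulators of oxidative stress and JNK signalling, 4 (44.4%) had a promoter site, against the same 18.7%. These were Keap1, the inhibitor of the stress factor cnc, at 2.47 ± 0.449, puc, a JNK phosphatase gene, at 1.95 ± 1.02, kay, the Fos gene, at 1.80 ± 0.340 (SD, n = 3 each), and cnc at 1.33 ± 0.210 (SD, n = 2). The Keap1 site lay nearer to kuk.

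**Figure D5:**
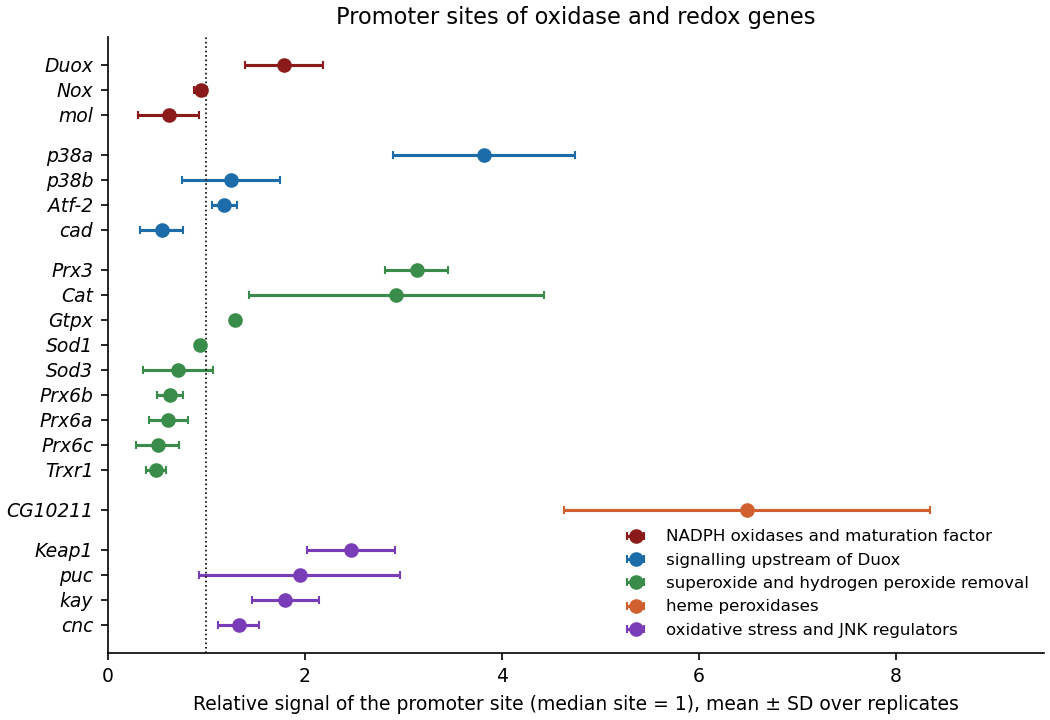
Relative signal of the promoter site (mean ± SD over replicates with a peak; median site = 1, dotted line) for the 21 list genes that have one, coloured by list. CG10211, p38a, Prx3 and Cat lie highest, Duox lies at 1.79, and Nox and mol lie below 1.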

How the data were processed

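ChIP-seq of Blimp-1-GFP was available for 3 biological replicates of whole prepupae, with no control group. The authors deposited, on dm6, an IDR-thresholded peak list, a pooled relaxed list and a relaxed list for each replicate, per the text deposited with the libraries. The signal of each deposited peak (column 7) is the peak caller's own. Its scaling, the caller and the aligner are not stated in the deposited text. The signal was therefore used to rank peaks and, after division by the list's median over sites, to compare replicates. Lists made on dm3 were not used here, and coordinates were not converted. Read depth is unknown, so no counting interval is given.

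Overlapping IDR peaks were merged, with the strongest summit kept. A replicate's signal at a site was that of its strongest peak overlapping by at least 1 bp. Sites were assigned to windows and start sites by their summits, with Ensembl release 115 genes. RefSeq's table for genome release 6 gave synonyms. The members and lists were chosen with earlier results of these data known, so no p-value is given. Named genes were mol, Duox, neighbours with a promoter site, up to 4 genes per list with the highest promoter signals, and the 3 genes most like each member. Others were added after their values were seen: norpA, Mekk1, p38c, unbound list members, Syt1, Cpr23B, CG3123 and genes nearest to a named site. The code was tested on simulated peaks and sequences (Python 3.11.15, numpy 2.4.6, pandas 2.3.3).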

Additional observations from a re-analysis of the deposited data

How the results depend on the processing

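The relative signal of the mol intron site lay between 23.4 and 23.8 under upper-quartile scaling, rank scaling and stricter matching of replicate summits, and between 22.5 and 24.9 with each replicate left out in turn. The Duox promoter site lay between 1.60 and 1.86 under the same alternatives and between 1.66 and 2.02 without 1 replicate. Its lowest value, 1.60, came from requiring a replicate summit within 150 bp, which left out replicate 1 (n = 2). The same rule, or requiring that the peak contain the summit, left replicate 3 out of the mol promoter site and gave 0.795. With sites above the median signal only, the mol window held 1 site and the Duox window 1. The Duox count was 1 within 10 kb, 1 within 5 kb and 0 in the gene body, since daw lies farther away and the promoter summit lies outside the gene. With no mismatch allowed, 0 window sites had a consensus match, and with at most 2 mismatches 5 had. The list count of 21 was 19 within 500 bp, 25 within 2000 bp and 16 with a peak required in every replicate, where 15.3%, 23.7% and 13.9% of all protein-coding genes were bound. It ranged from 16 to 21 with a replicate left out, and was 16 without replicate 1 and 16 without replicate 2. The share of all protein-coding genes with a replicate left out is not given here, so these counts have no background beside them. The site counts of 3 and 2 could not change with a replicate left out. The IDR list was not called again, and every site in the windows had a peak in all replicates. No paired analysis was possible because there is 1 group. Alternatives for the mol promoter, mol upstream and daw sites and the added motif patterns were chosen after seeing the data. Unknown depth limits what the absence of a peak can show.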

Other observations

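The core of the pair at the mol summit, GAAAGTGAAA (chr2L:14995749-14995758), occurs 1878 times on the major chromosome arms. Of these, 174 lay within 100 bp of a reproducible summit and 426 within 100 bp of a summit of the pooled relaxed list. The sites with it numbered 168 of 4990, with a median rank of 1738. The mol intron site was the strongest of them, but mol was chosen with its signal known. No share of flank windows is given for this word, so these counts have no background beside them. The full stretch CAACGAAAGTGAAATTG occurred once on these arms, at mol. The search was made after the summit sequence had been read, and it is a description of where these letters lie.

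Some peaks in the windows were seen in a replicate list and overlapped no pooled peak. In the mol window these were 0, 5 and 3 of 7, 15 and 12 peaks in replicates 1, 2 and 3. In the Duox window they were 5, 0 and 7 of 20, 13 and 19 peaks. The lists hold 30000 peaks each, whatever the library, so these numbers depend on where each list ends. The same share over all peaks of each list is not given here, so the counts have no background beside them.

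cysu, which encodes a heme peroxidase known to act with Duox in the fly wing, had no promoter site. It had 2 sites elsewhere, the stronger 2243 bp downstream of a start site at 1.295 ± 0.471 times the median site (SD, n = 3).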
